A study of Mus musculus with 8 samples.

Results

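Genes of hepatic fatty acid oxidation, 10 in number, were followed across 8 mouse liver arrays: the nuclear receptor gene Ppara and 9 genes of fatty acid import, breakdown and fuel choice, namely Cpt1a, Cpt2, Acadm, Acadvl, Acaa1a, Acaa1b, Ehhadh, Abcd2 and Pdk4. Every probe set that named only 1 of these genes was taken, whatever its values, which gave 13 probe sets of 10 genes among the 12422 probe sets and 8251 genes tested. Each gene had at least 1 probe set. Cpt2, Acadvl and Acaa1b had 2 each.

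The livers came from Ttr::Fv2E-Perk mice of 4 groups with 2 arrays each: untreated Atf4+/+, untreated Atf4-/-, AP20187-treated Atf4+/+ and AP20187-treated Atf4-/-. Fv2E-PERK is a chimera of the kinase PERK with a dimerisation domain, and AP20187 is the compound that joins and so activates it. Active PERK phosphorylates the translation initiation factor eIF2, which lowers most protein synthesis while raising that of the transcription factor ATF4, a response known as the integrated stress response. The transgene runs from the transthyretin (Ttr) promoter, a promoter of hepatocytes, in the low-expressing line #58, and all 4 groups carry it on a mixed FvB/n and Swiss Webster background, as siblings from a backcross. No group lacks the transgene, so an effect of AP20187 itself and one of the chimera cannot be told apart here, and the title speaks of mock injection where the sample labels say untreated. Dose, time after AP20187, age and feeding state are not given in the sources used here.

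Fatty acids enter mitochondria as carnitine esters and are shortened there by rounds of dehydrogenation, hydration, oxidation and thiolytic cleavage. Very long chains are shortened first in peroxisomes by a parallel set of enzymes. In liver the receptor PPAR-alpha, bound by fatty acids, pairs with a retinoid X receptor and switches on both sets of genes, most of all in fasting.

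All values are ratios in which 1 is about the median of a probe set over the 8 arrays, so that they show how an array stands to the others and not how abundant a transcript is. Of the 13 probe sets, 3 stood apart: Cpt2 161978_r_at and Acadvl 161623_at and 93334_at had medians of 0.345, 0.48 and 0.765, below the 0.99 that the other 10 reached. They also spread further. Between the lowest and the highest array they differed by 2.39 to 3.36 on the log2(ratio + 0.1) scale, against 0.67 to 2.03 for the other 10 and a median of 1.02 for all probe sets with a median of at least 0.99.

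The genotype labels could be set against Atf4 itself (probe set 100599_at). Its ratio was 2.36 and 0.3 in untreated Atf4+/+, 0.29 and 1.67 in untreated Atf4-/-, 4.17 and 5.75 in AP20187-treated Atf4+/+, and 0.25 and 0.33 in AP20187-treated Atf4-/-. The 4 treated arrays thus matched their labels, while the level in untreated Atf4+/+ replicate 2 was that of the treated Atf4-/- arrays and the level in untreated Atf4-/- replicate 2 was above it. In addition, the labels of untreated Atf4-/- replicate 1 give both genotypes, and its source name was followed. Genotypes below are therefore those of the labels, and for several genes values without the arrays in doubt are given. Of 8 listed hepatocyte marker genes 7 were measured (8 probe sets, among them Alb and Apoa1). Their mean log2(ratio + 0.1) lay between -0.42 and 0.42 by array. Such ratios do not show how much hepatocyte RNA an array held. In whole liver, fewer cells of a type and less RNA per cell cannot be told apart.

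AP20187 moved none of the 13 probe sets past the test in either genotype. Ppara, Ehhadh and Abcd2 had the most negative changes over both genotypes among the 10 probe sets with medians of at least 0.99, Cpt1a and Pdk4 stood near 0 (-0.05 and -0.06), and Acadm was slightly above it. Each of these intervals included 0. From array to array these 10 probe sets went up and down together, also within the groups as labelled. They were high in untreated Atf4+/+ replicate 1 and untreated Atf4-/- replicate 2 and low in AP20187-treated Atf4+/+ replicate 2. Much of this rested on the 2 high arrays, and the labels of the untreated groups are in doubt.

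**Figure D1:**
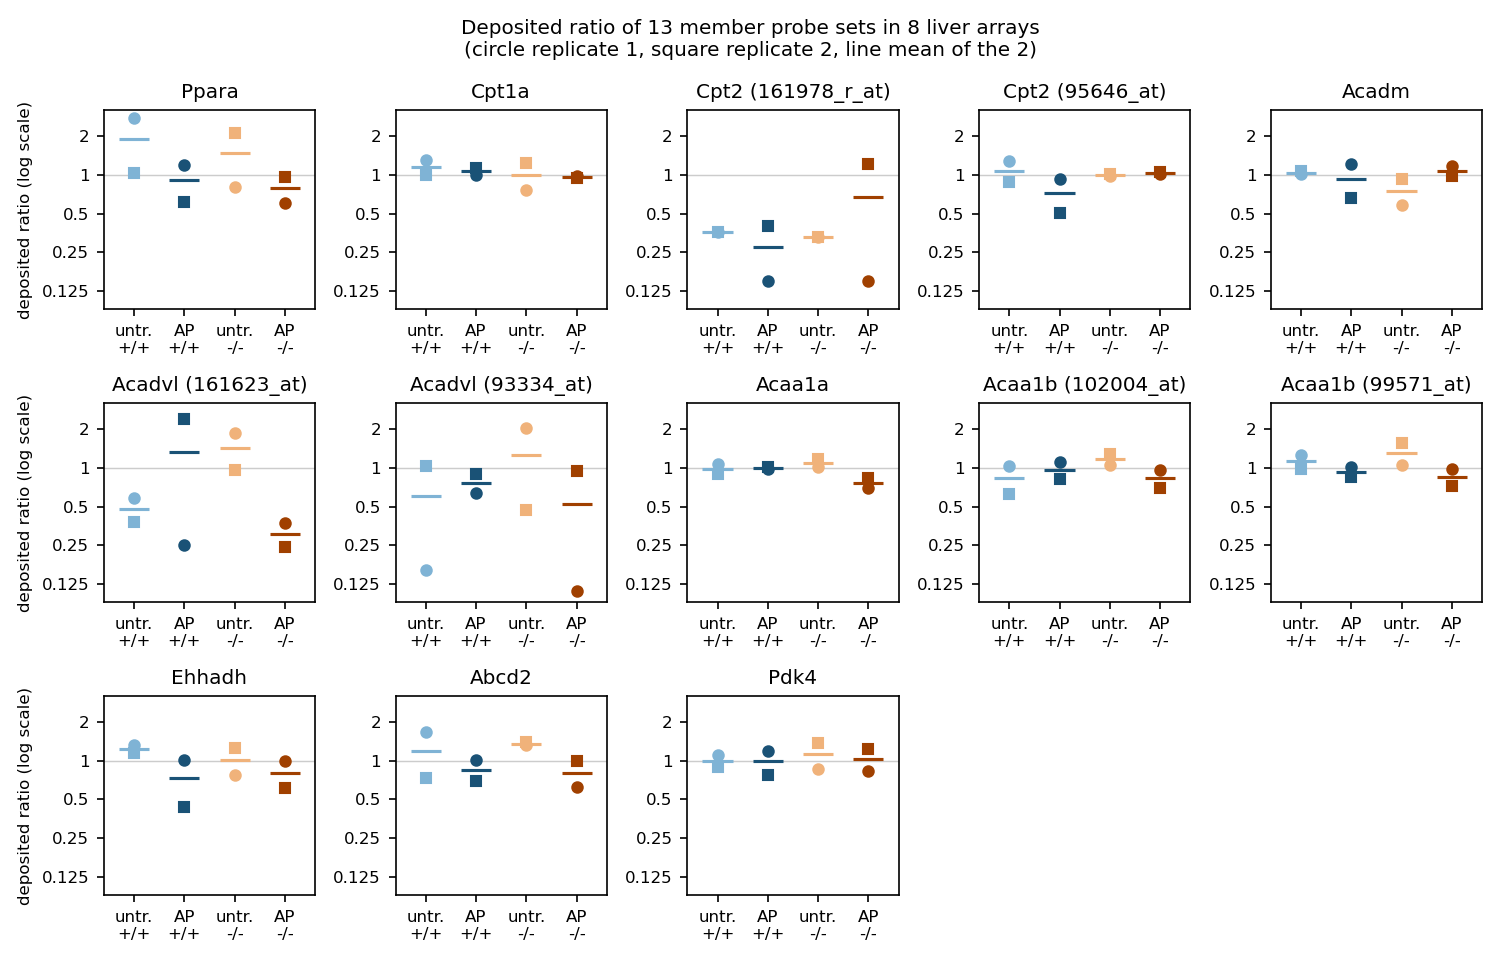
Deposited ratio (log axis) of each of the 13 member probe sets in the 4 groups, with a circle for replicate 1, a square for replicate 2 and a line at their mean (untr., untreated; AP, AP20187). Ppara spans 0.61 to 2.79, Cpt1a only 0.76 to 1.31, and the points of treated and untreated groups overlap in every panel when both genotypes are read together.

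Ppara (chr15:85734910-85806851; all gene coordinates are from RefSeq on GRCm38.p6) encodes the receptor itself. Its ratio was 2.79 and 1.03 in untreated Atf4+/+, 0.81 and 2.14 in untreated Atf4-/-, 1.2 and 0.62 in treated Atf4+/+, and 0.61 and 0.97 in treated Atf4-/-. The highest values were both from untreated livers, 1 of each genotype, and the other 2 untreated livers lay inside the range of the treated ones. The group means were 1.91 ± 1.25, 1.48 ± 0.94, 0.91 ± 0.41 and 0.79 ± 0.25 in the same order (SD, n = 2). The change with AP20187 was -0.90 ± 0.63 (SE) on the log2(ratio + 0.1) scale in Atf4+/+ (limma adjusted p = 0.704) and -0.71 ± 0.63 in Atf4-/- (limma adjusted p = 0.807). Over both genotypes it was -0.81 ± 0.45, with a 95% confidence interval of -1.88 to 0.27 (limma adjusted p = 0.539). The value over both genotypes was nearly the same, -0.82, without the 2 untreated arrays whose Atf4 level opposed their label, but the change then stood at -1.58 in Atf4+/+ and -0.06 in Atf4-/-. The sizes within a genotype therefore rested on which untreated array was kept.

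Cpt1a (chr19:3322326-3385735) encodes the liver form of carnitine palmitoyltransferase 1, the outer mitochondrial enzyme that makes the carnitine esters and sets the pace of import. Its ratio was 1.31 and 1 in untreated Atf4+/+, 0.76 and 1.25 in untreated Atf4-/-, 1.01 and 1.13 in treated Atf4+/+, and 0.98 and 0.95 in treated Atf4-/-. The 4 treated livers lay between 0.95 and 1.13, inside the range of the untreated ones. The change with AP20187 over both genotypes was -0.05 ± 0.20, with a 95% confidence interval of -0.54 to 0.43 (limma adjusted p = 0.938). Without the 2 untreated arrays whose Atf4 level opposed their label, the change in Atf4-/- went from -0.02 to 0.31, and without untreated Atf4-/- replicate 1, whose labels conflict, it was -0.34.

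Cpt2 (chr4:107903982-107923589) encodes the inner membrane enzyme that turns the carnitine esters back into acyl-CoA. Probe set 95646_at gave 1.28 and 0.88 in untreated Atf4+/+, 0.98 and 1.02 in untreated Atf4-/-, 0.93 and 0.51 in treated Atf4+/+, and 1.02 and 1.05 in treated Atf4-/-. Only treated Atf4+/+ replicate 2 stood well below the others. The change was -0.55 ± 0.32 in Atf4+/+ (limma adjusted p = 0.657) and 0.05 ± 0.32 in Atf4-/- (limma adjusted p = 0.985), and the difference between these changes was 0.60 ± 0.45 (limma adjusted p = 0.945). The second Cpt2 probe set, 161978_r_at, stayed between 0.15 and 0.4 in 7 arrays and reached 1.21 in treated Atf4-/- replicate 2. The 2 probe sets of this gene did not run in parallel (Pearson r = 0.02, Spearman rho = 0.05 over 8 arrays, given as a description).

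Acadm (chr3:153922353-153944643) encodes the medium-chain acyl-CoA dehydrogenase of the mitochondrial cycle. Its ratio was 1.02 and 1.07 in untreated Atf4+/+, 0.58 and 0.93 in untreated Atf4-/-, 1.21 and 0.66 in treated Atf4+/+, and 1.17 and 0.98 in treated Atf4-/-. It was the 1 member whose treated Atf4-/- arrays both lay above the untreated arrays of that genotype, as did those of 20.1% of all probe sets. Its change there was 0.48 ± 0.34 (limma adjusted p = 0.774). Over both genotypes the change was 0.14 ± 0.24 (limma adjusted p = 0.847). Untreated Atf4-/- replicate 1, the array with conflicting labels, gave the lowest value of the 8, and without it the change in Atf4-/- was 0.19. Without the 2 arrays whose Atf4 level opposed their label it was 0.78, and over both genotypes 0.31.

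Acadvl (chr11:70010183-70015428) encodes the very long-chain enzyme that starts the same cycle at the inner membrane. Probe set 161623_at gave 0.58 and 0.38 in untreated Atf4+/+, 1.88 and 0.97 in untreated Atf4-/-, 0.25 and 2.41 in treated Atf4+/+, and 0.37 and 0.24 in treated Atf4-/-. The treated Atf4+/+ livers were thus nearly the lowest and the highest of all. Probe set 93334_at gave 0.16 and 1.04, 2.05 and 0.47, 0.64 and 0.89, and 0.11 and 0.94 in the same order of groups. The 2 probe sets differed on which arrays were high (Pearson r = 0.36, Spearman rho = 0.17 over 8 arrays). The change of 161623_at in Atf4-/- was -1.86 ± 0.88, with the smallest unadjusted p of any member in any comparison (0.0748, limma adjusted p = 0.697). The difference between the AP20187 changes in Atf4-/- and Atf4+/+ was -1.90 for 93334_at. It was -3.92 without the 2 untreated arrays whose Atf4 level opposed their label. With medians of 0.48 and 0.765, neither probe set gave a settled direction for Acadvl.

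Acaa1a and Acaa1b lie near each other on chr9 (chr9:119341028-119350296 and chr9:119148043-119157093) and encode the peroxisomal 3-ketoacyl-CoA thiolases A and B, which cleave the last bond of the peroxisomal cycle. They are close copies, and the probe sequences were not used here, so that signal shared between them cannot be told apart. Acaa1a stood at 1.08 and 0.89 in untreated Atf4+/+, 1.02 and 1.17 in untreated Atf4-/-, 0.99 and 1.01 in treated Atf4+/+, and 0.7 and 0.84 in treated Atf4-/-. The 2 treated Atf4-/- livers were the lowest of the 8. Their difference from untreated Atf4-/- was -0.46 ± 0.22 (limma adjusted p = 0.700), and from treated Atf4+/+ it was -0.34 ± 0.22 (limma adjusted p = 0.956).

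Acaa1b probe set 99571_at stood at 1.27 and 0.98 in untreated Atf4+/+, 1.05 and 1.58 in untreated Atf4-/-, 1.02 and 0.85 in treated Atf4+/+, and 0.98 and 0.73 in treated Atf4-/-. Probe set 102004_at gave 1.04 and 0.63, 1.06 and 1.28, 1.12 and 0.82, and 0.96 and 0.7 in the same order. In both, untreated Atf4-/- replicate 2 was the highest array. The 3 thiolase probe sets ran in parallel, with Pearson r between 0.52 and 0.75 over the 8 arrays. The change of 99571_at was -0.24 ± 0.29 in Atf4+/+ and -0.55 ± 0.29 in Atf4-/-, and over both genotypes -0.40 ± 0.20 (limma adjusted p = 0.523). That of 102004_at was 0.22 ± 0.31 and -0.46 ± 0.31, so that the 2 probe sets had opposite signs in Atf4+/+. Without the 2 untreated arrays whose Atf4 level opposed their label, 102004_at stood at -0.11 in Atf4+/+, and 99571_at at -0.28 in Atf4-/-. Without untreated Atf4-/- replicate 1, whose labels conflict, the change of 99571_at in Atf4-/- was -0.83.

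Ehhadh (chr16:21761285-21787834) encodes the peroxisomal bifunctional enzyme, which carries the hydratase and dehydrogenase steps. Its ratio was 1.33 and 1.16 in untreated Atf4+/+, 0.77 and 1.26 in untreated Atf4-/-, 1.02 and 0.44 in treated Atf4+/+, and 0.99 and 0.62 in treated Atf4-/-. It was the single member whose treated Atf4+/+ arrays both lay below both untreated Atf4+/+ arrays, as did those of 21.3% of all probe sets. The change was -0.79 ± 0.43 in Atf4+/+ (limma adjusted p = 0.644) and -0.30 ± 0.43 in Atf4-/- (limma adjusted p = 0.887). Over both genotypes it was -0.54 ± 0.30, with a 95% confidence interval of -1.28 to 0.19 (limma adjusted p = 0.544). Treated Atf4+/+ replicate 2, the lowest array, also had the lowest 5′ to 3′ signal of the Actb control, -0.54 on the log2 scale against -0.17 for the next array. The Gapdh control showed no such gap, at -0.054 in that array and -0.046 in untreated Atf4+/+ replicate 1. Without treated Atf4+/+ replicate 2 the change of Ehhadh was -0.26 in Atf4+/+ and -0.28 over both genotypes. Without the 2 untreated arrays whose Atf4 level opposed their label it was 0.03 in Atf4-/- and -0.43 over both.

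Abcd2 (chr15:91145871-91192007) encodes a transporter that brings very long-chain acyl-CoA into peroxisomes. Its ratio was 1.67 and 0.74 in untreated Atf4+/+, 1.33 and 1.4 in untreated Atf4-/-, 1.01 and 0.7 in treated Atf4+/+, and 0.63 and 0.99 in treated Atf4-/-. The treated livers reached 1.01 at most, and 3 of the 4 untreated livers lay above that. The change was -0.37 ± 0.41 in Atf4+/+ (limma adjusted p = 0.815) and -0.72 ± 0.41 in Atf4-/- (limma adjusted p = 0.728). Over both genotypes it was -0.54 ± 0.29 (limma adjusted p = 0.528). Without untreated Atf4+/+ replicate 2, whose Atf4 level opposed its label, it was -0.81 ± 0.24 (limma adjusted p = 0.447). Without the other untreated Atf4+/+ array, replicate 1, it was -0.27 over both genotypes and 0.17 in Atf4+/+.

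Pdk4 (chr6:5483351-5496278) encodes a kinase that switches off pyruvate dehydrogenase and so spares glucose when fat is burnt, and it is a well-known PPAR-alpha target. Its ratio was 1.11 and 0.89 in untreated Atf4+/+, 0.86 and 1.39 in untreated Atf4-/-, 1.2 and 0.78 in treated Atf4+/+, and 0.84 and 1.24 in treated Atf4-/-. In each group 1 array lay below 1 and 1 above it. The change with AP20187 over both genotypes was -0.06 ± 0.24, with a 95% confidence interval of -0.65 to 0.53 (limma adjusted p = 0.943). In Atf4-/- it was -0.09, or 0.23 without the 2 untreated arrays whose Atf4 level opposed their label and -0.41 without untreated Atf4-/- replicate 1, whose labels conflict.

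**Figure D2:**
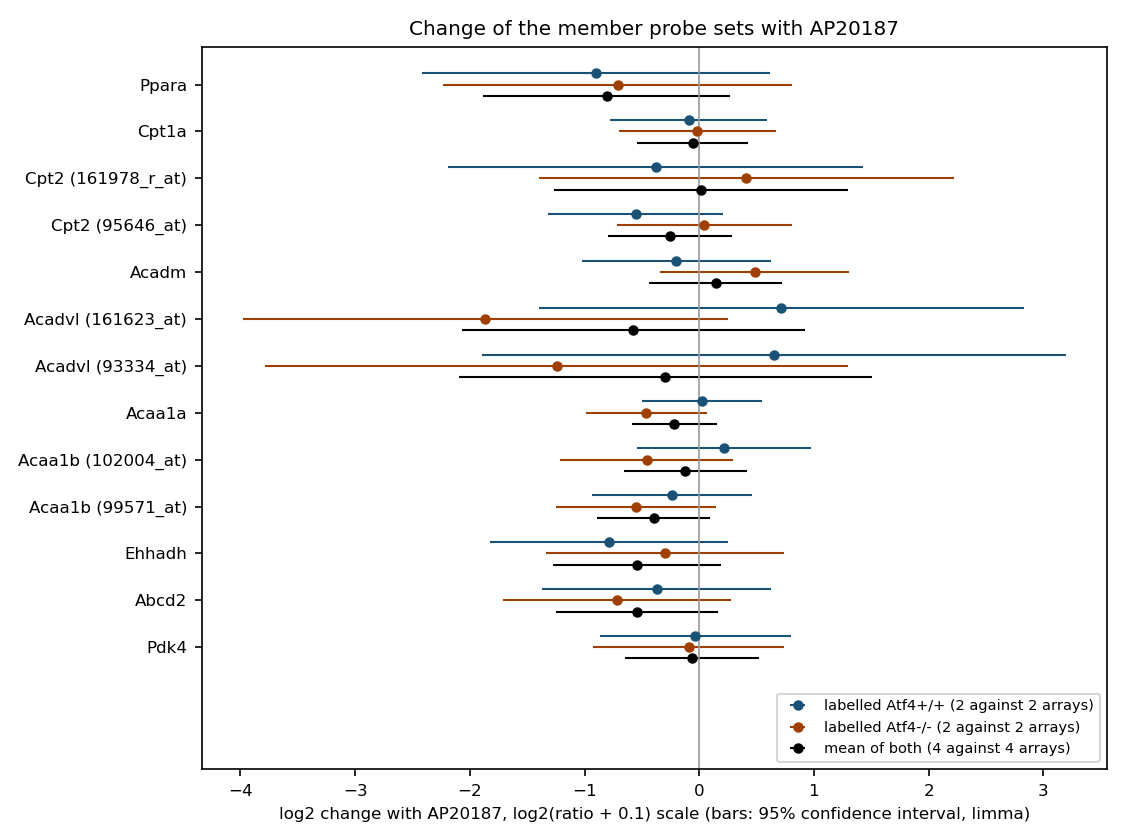
Change of each member probe set with AP20187 on the log2(ratio + 0.1) scale (points) with its 95% confidence interval (bars), in arrays labelled Atf4+/+ (blue), in arrays labelled Atf4-/- (brown) and as the mean of both (black). All 39 intervals include 0, and the widest belong to the 2 Acadvl probe sets and to Cpt2 161978_r_at.

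Counted over the 13 probe sets, AP20187 in Atf4+/+ gave 4 higher and 9 lower values, with a median change of -0.20 against -0.06 for all 12422 probe sets. None of the 13 passed limma's adjusted p of 0.05, which 0.00805% of all probe sets passed (1 of 12422), and none had an unadjusted p below 0.05, which 9.1% of all had. In Atf4-/- 3 were higher and 10 lower, with a median of -0.46 against -0.02 for all. None of the 13 passed the adjusted test, which no probe set passed (0%), and none had an unadjusted p below 0.05, against 7.42% of all.

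Over both genotypes 2 were higher and 11 lower, with a median of -0.25 against -0.04. Again none of the 13 passed, against 0.0403% of all probe sets by adjusted p (5 of 12422) and 11.3% by unadjusted p. At such backgrounds a count of 0 of 13 does not set the members apart, and it does not show that they stayed level, since the SE of a change between 2 and 2 arrays had a median of 0.32. Whether the lean to lower values was particular to the members was not tested. The hepatocyte markers leaned the same way, with 7 of their 8 probe sets lower over both genotypes and a median of -0.29. Of these markers 2 had a limma unadjusted p below 0.05. Their part in the members' values was not tested.

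Groups that do not overlap were counted as well. No member had its 4 treated arrays all below or all above the 4 untreated ones, which 3.78% and 4.19% of all probe sets had. In Atf4+/+ 1 member (Ehhadh) had both treated arrays below both untreated arrays, against 21.3% of all probe sets, and none had them above, against 16.7%. In Atf4-/- 5 of the 13 member probe sets had both treated arrays below, against 22.3% of all. They were Acadvl 161623_at, Acaa1a, both Acaa1b probe sets and Abcd2. Signal may be shared between the Acaa1a and Acaa1b probe sets, so these are not separate cases, and an excess over that share was not tested. The Acadm probe set had both treated arrays above both untreated ones, against 20.1% of all.

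The question of whether Atf4 alters these genes' response is met by the difference of the 2 AP20187 effects. Of the 13 probe sets 6 had a more positive and 7 a more negative change in Atf4-/- than in Atf4+/+, with a median difference of -0.06 against 0.04 for all. None passed by adjusted p, where no probe set passed (0%), and none had an unadjusted p below 0.05, which 5.46% of all had. For Ppara the difference was 0.19 ± 0.89, with a 95% confidence interval of -1.96 to 2.34, for Ehhadh 0.49 ± 0.61, for Abcd2 -0.34 ± 0.58 and for Pdk4 -0.06 ± 0.49. These intervals allow large differences in either direction, so that a like response in both genotypes was not shown. The median over the members turned positive in 6 of 18 other settings, among them leaving out either untreated array whose Atf4 level opposed its label.

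Between the genotypes without AP20187, 7 members were higher and 6 lower in Atf4-/-, with a median of 0.13 against -0.01 for all. No member and no other probe set passed by adjusted p (0%), and no member had an unadjusted p below 0.05, against 5.32% of all. Acadvl 161623_at and Acaa1b 102004_at lay above both Atf4+/+ arrays in both Atf4-/- arrays, which 15.5% of all probe sets did, and Cpt2 161978_r_at and Acadm lay below, which 16.4% did. The untreated Atf4-/- pair itself was split, with Ppara at 0.81 and 2.14. Leaving out both arrays whose Atf4 level opposed their label turned the median over the members to -0.31 and set Ppara at -1.67 ± 0.59 (limma adjusted p = 0.655) in Atf4-/- against Atf4+/+, from 1 array of each, with the lone arrays taken to vary like the other groups.

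Between the genotypes with AP20187, where the Atf4 level matched every label, 5 members were higher and 8 lower in Atf4-/-, with a median of -0.12 against 0.04 for all. No probe set of the array passed by adjusted p (0%), and no member had an unadjusted p below 0.05, against 5.31% of all. Cpt2 95646_at was higher in both Atf4-/- arrays than in both Atf4+/+ arrays, as were 19.2% of all probe sets, by 0.52 ± 0.32 (limma adjusted p = 0.955). Cpt1a and Acaa1a were lower in both, as were 15.3% of all, Cpt1a by a change of -0.13 ± 0.28. Ppara itself differed by -0.15 ± 0.63, with a 95% confidence interval of -1.67 to 1.37, between livers with Atf4 at 4.17 and 5.75 and livers with Atf4 at 0.25 and 0.33.

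The members varied together from array to array. Among the 10 probe sets with medians of at least 0.99, 44 pairs join different genes, and 40 of them had a Pearson r above 0 over the 8 arrays. The median r was 0.43, against 0.00 for all pairs of probe sets of the table with medians of at least 0.99. Values ran from -0.39 between Acadm and Acaa1a to 0.81 between Ppara and Abcd2. Ppara had a positive r with each of the other 9 probe sets, from 0.29 with Acadm to 0.81. These correlations are over 8 arrays that share one table, and they are given as a description that was made after the values had been seen.

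The joint movement was also present inside the groups as labelled. Taken as deviations from the group means, which leave 1 independent difference in each of the 4 groups, the median r was 0.60. Of the 44 pairs 43 were above 0. For all pairs of probe sets with medians of at least 0.99 the median r was 0.00. By array, all 10 probe sets stood above 1 in untreated Atf4+/+ replicate 1 and 9 of 10 in untreated Atf4-/- replicate 2, against 52.9% and 48.0% of all probe sets with such medians. These arrays were the highest or second highest for 7 and 8 of the 10. Treated Atf4+/+ replicate 2 was among the 2 lowest arrays for 7 of 10 and treated Atf4-/- replicate 2 for 5 of 10. Without the 2 highest arrays the median r over the other 6 fell to 0.15 (0.35 as deviations from the group means), so that much of the joint movement rested on them. Leaving out any 1 array gave 0.34 to 0.54.

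**Figure D3:**
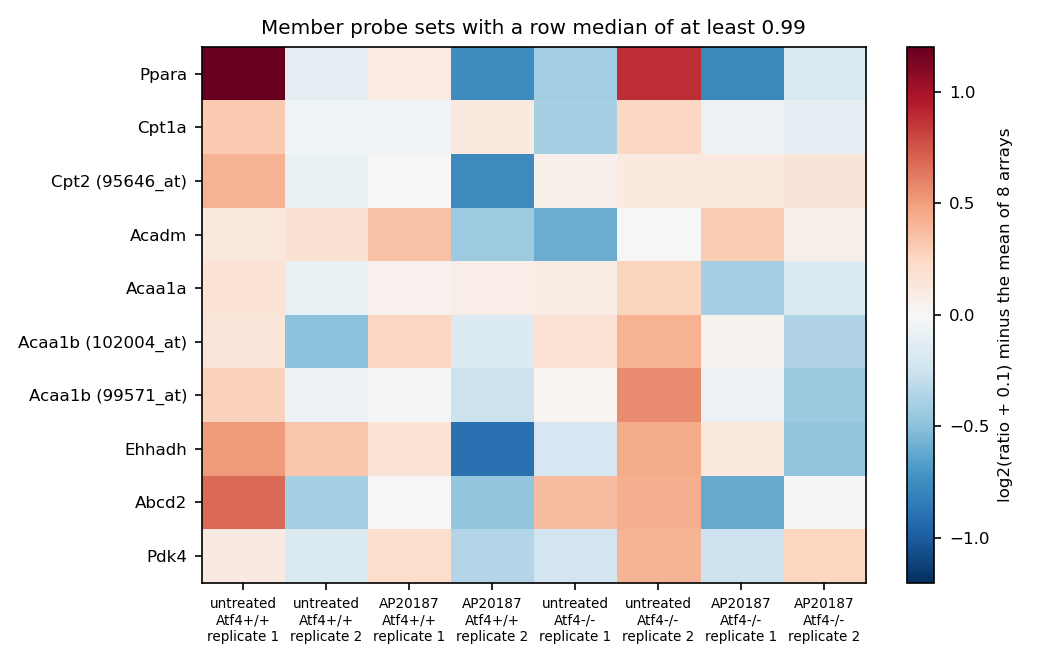
Log2(ratio + 0.1) of the 10 member probe sets with medians of at least 0.99 in each of the 8 arrays, minus the mean of the probe set over the arrays (red higher, blue lower). The columns of untreated Atf4+/+ replicate 1 and untreated Atf4-/- replicate 2 are red nearly throughout, and that of AP20187 Atf4+/+ replicate 2 is mostly blue, with Ppara showing the largest range.

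Some other values went with parts of this pattern. The 2 arrays in which these 10 probe sets were high were the 2 untreated arrays with the high Atf4 ratios (2.36 and 1.67). Atf4 was higher still in treated Atf4+/+ (4.17 and 5.75), where the 10 probe sets had a mean log2(ratio + 0.1) of 0.22 and -0.27. Fasn, the lipogenic fatty acid synthase, was at 2.29 and 2.49 in the 2 high arrays against 0.39 to 1.58 in the other 6. Of the other feeding-state probe sets, Srebf1 (1.33 and 1.47) was highest there too, and G6pc was at 1.14 in both. Pck1 (1 and 0.82), Igfbp1 103896_f_at (0.33 and 0.39) and Igfbp1 103897_r_at (0.65 and 1.04) did not share the pattern. The hepatocyte markers had a mean log2(ratio + 0.1) of 0.24 and 0.26 in the 2 high arrays. It was 0.42 in untreated Atf4-/- replicate 1, where the 10 probe sets were at 0.00. It was -0.42 in treated Atf4+/+ replicate 2, where the 10 were at -0.27, the lowest array for both. Over all 13 member probe sets the lowest array was instead treated Atf4-/- replicate 1, at -0.44 against -0.19 in treated Atf4+/+ replicate 2. Among themselves the hepatocyte markers had a median r of 0.45 over the 8 arrays and 0.14 as deviations from the group means. The part of Atf4, feeding or hepatocyte content in the members' values was not tested.

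A mean member profile was then taken over all 10 genes with equal weight, each gene being the mean of its probe sets. It includes the 3 probe sets with low medians and so differs from the pattern of the 10: its lowest array was treated Atf4-/- replicate 1 (-0.33), followed by treated Atf4+/+ replicate 2 (-0.21). The genes most like it, of 9294 probe sets naming 1 gene, were Fdx1 (Pearson r = 0.985), which encodes the electron carrier ferredoxin of mitochondria, Aqp8 (0.982), a water channel of hepatocytes, and Nr1i3 (0.977), the nuclear receptor CAR. Aqp8 reached 1.78 and 2.13 in the 2 arrays in which the profile was high and was at 0.56 and 0.45 in treated Atf4+/+ replicate 2 and treated Atf4-/- replicate 1. The genes most like Ppara were Fbxo3 (0.973), an F-box protein, Lgals1 (0.963), which encodes galectin-1, and Cyhr1 (0.954). They were the top of a search over many probe sets with 8 arrays, and are given as a description only.

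Because PPAR-alpha binds DNA at direct repeats of the half-site AGGTCA, the promoters of the members were searched for it, from 250 bases before to 50 after the start site in the RefSeq table (GRCm38.p6, both strands). Of the 10 genes 9 matched a window, all but Abcd2. The half-site stood in 3 of 9, Acadm, Acadvl and Cpt1a, and in 16.3% of all 32851 windows. The direct repeat of 2 half-sites 1 base apart, each match of which is also a match of the half-site, stood in none of the 9 and in 0.0396% of all windows. The core TGATGNAA, which ATF4 binds with a C/EBP partner, also stood in none of the 9 and in 3.97% of all. The 3 stretches with a half-site are shown 5′ to 3′ on the strand of the gene, with the half-site or its complement in capitals, since they are the only matches in the 9 windows.
Acadm, chr3:153944862-153944893 (-): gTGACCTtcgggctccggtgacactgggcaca
Acadvl, chr11:70015485-70015540 (-): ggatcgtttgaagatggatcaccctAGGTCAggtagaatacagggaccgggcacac
Cpt1a, chr19:3323182-3323237 (+): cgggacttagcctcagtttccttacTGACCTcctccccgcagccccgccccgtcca
The match begins 249 bases before the start site in Acadm, 87 before it in Acadvl and 94 before it in Cpt1a, on the gene's own strand in Acadvl alone. The start site taken for Cpt1a in that table lies inside the gene interval given above, so that its window is not the stretch before the first base of the gene. A match is a run of letters and shows no binding.

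The wider pathway was read from a list of 81 further genes in 8 role groups, of which 58 genes had 73 probe sets. No probe set named a ketogenesis gene alone. None of the 73 passed by adjusted p in any of the 6 comparisons. With AP20187 over both genotypes 25 were higher and 48 lower, with a median of -0.10 against -0.25 for the members and -0.04 for all probe sets. Of the 73, 5 higher and 1 lower ones had a limma unadjusted p below 0.05, which 11.3% of all probe sets had. These counts thus do not set the list apart. Over both genotypes 6836 of all 12422 probe sets were lower. The other enzymes of the 2 cycles and those of omega oxidation also leaned to lower values. Lower were 10 of 13 mitochondrial, 10 of 11 peroxisomal and 4 of 4 omega-oxidation probe sets, with medians of -0.14, -0.12 and -0.17. In Atf4-/- alone they did so less than the members, with 7 of 13, 7 of 11 and 2 of 4 lower at medians of -0.12, -0.03 and 0.03. The members had 10 of 13 lower there, with a median of -0.46. In Atf4+/+ alone this was not so, with 10 of 13, 9 of 11 and 4 of 4 lower at medians of -0.135, -0.24 and -0.46. The members had 9 of 13 lower in Atf4+/+, with a median of -0.20. These differences were not tested. The other PPAR-alpha targets did not lean to lower values, with 10 of 15 higher over both genotypes at a median of 0.19. In Atf4-/- alone 8 of these 15 were higher, with a median of 0.003.

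By role, the probe set with the smallest p over both genotypes was Acsl4 102381_at in uptake and activation. Acsl4 encodes an acyl-CoA synthetase that prefers arachidonic acid. It stood at 0.92 and 0.71 in untreated Atf4+/+, 0.38 and 0.46 in untreated Atf4-/-, 1.62 and 1.94 in treated Atf4+/+, and 1.09 and 1.09 in treated Atf4-/-. Every treated array thus lay above every untreated one, as for 4.19% of all probe sets. Its change was 1.12 ± 0.16 (limma adjusted p = 0.127). Plin2, a lipid droplet coat protein, led the other PPAR-alpha targets at 0.81 ± 0.25 (limma adjusted p = 0.354). Hadh, the mitochondrial short-chain hydroxyacyl-CoA dehydrogenase, led the mitochondrial group at -0.63 ± 0.21 (limma adjusted p = 0.382). Its treated arrays (0.57 to 0.95) all lay below its untreated ones (1.05 to 1.51), as for 3.78% of all probe sets.

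The remaining groups gave Ech1 at -0.34 ± 0.15 (peroxisomal isomerase, limma adjusted p = 0.461), Aldh3a2 at -0.48 ± 0.23 (fatty aldehyde dehydrogenase, limma adjusted p = 0.498), Ppard at 0.78 ± 0.41 (PPAR-delta, limma adjusted p = 0.527) and the Crat probe set 161989_f_at at 0.56 ± 0.47 (carnitine acetyltransferase, limma adjusted p = 0.682). The value of this Crat probe set is the mean of opposite changes, 2.0 ± 0.66 in Atf4+/+ and -0.89 ± 0.66 in Atf4-/-, whose difference was -2.89 ± 0.93 (limma adjusted p = 0.901). Ppard was at 4.52 in treated Atf4-/- replicate 2 and between 0.82 and 1.51 elsewhere. The second Crat probe set, 103646_at, ran from 0.86 to 1.47.

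Between treated genotypes, the smallest p in each role group belonged to Acsl4 104017_at (-0.89 ± 0.24 in Atf4-/- against Atf4+/+, limma adjusted p = 0.744), Crat 161989_f_at (-1.66 ± 0.66), Hadhb (0.39 ± 0.22), Pex11a (-0.90 ± 0.43), Cyp4a14 (1.03 ± 0.51), Med1 (-0.85 ± 0.42) and Vldlr 96534_at (-0.81 ± 0.39). The adjusted p of the other 6 lay between 0.920 and 0.952 in limma. These were chosen as the smallest of their groups and none passed the test. Hadhb carries the thiolase of the mitochondrial trifunctional protein, Pex11a a protein of peroxisome division, Cyp4a14 an omega-hydroxylase, Med1 a coactivator and Vldlr a lipoprotein receptor.

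**Figure D4:**
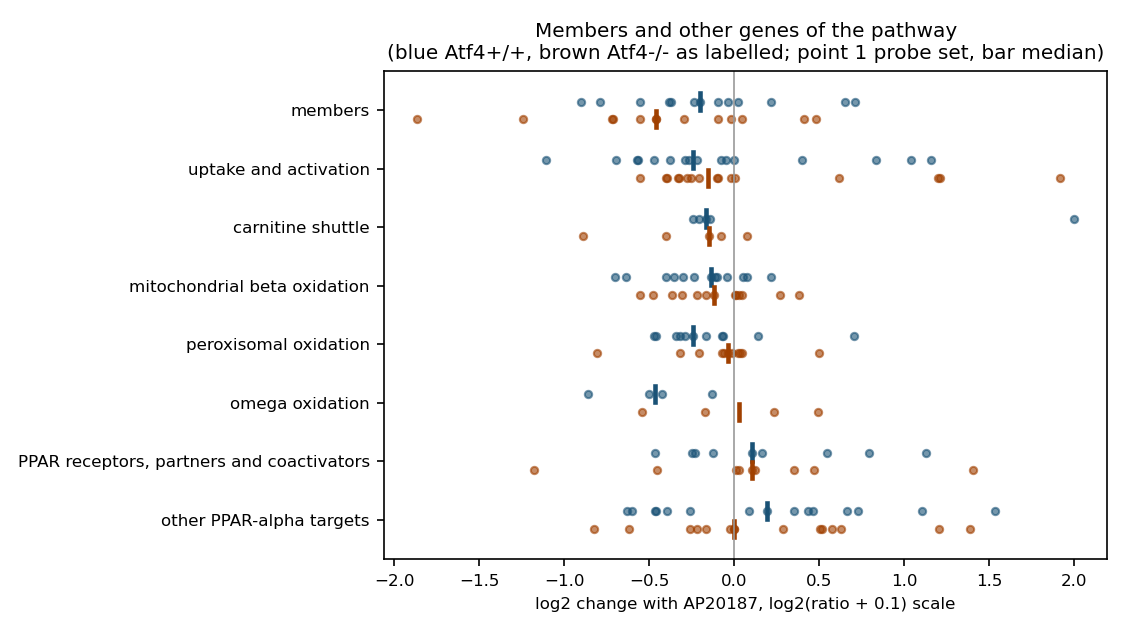
Change with AP20187 on the log2(ratio + 0.1) scale for each probe set (points) of the members and of the 7 measured role groups, in arrays labelled Atf4+/+ (blue) and Atf4-/- (brown), with bars at the medians. The member medians stand at -0.20 and -0.46, and the points of every group lie on both sides of 0 in at least 1 genotype.

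Joint movement was also present in parts of the wider pathway. The median r between genes was 0.42 for the carnitine shuttle (9 pairs), 0.29 for the peroxisomal group (53 pairs) and 0.20 for the mitochondrial group (76 pairs), and 0.08 for the whole list (2468 pairs), each over the 8 arrays. For the PPAR receptors, partners and coactivators it was -0.08 and for the other PPAR-alpha targets -0.07. Crat 103646_at, at 1.47 in untreated Atf4+/+ replicate 1 and 1.44 in untreated Atf4-/- replicate 2, and Aldh3a2 99559_at, at 1.54 and 1.81, were high in the arrays in which the 10 member probe sets were. Acsl4 102381_at, at 0.92 and 0.46 there, was not.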

How the data were processed

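Total RNA of 8 mouse livers was labelled as biotinylated cRNA and hybridised to Affymetrix arrays, per the labels' protocols. Values were deposited by the authors as a table of linear ratio values with a step of 0.01. For 85.8% of its probe sets the median over the arrays was at least 0.99. Signal summary, scaling and divisor are steps not given in the sources used here. Signal over background is unknown. The trimmed column means lay between 0.937 and 0.980, and the table was kept as deposited. Groups came from source names and descriptions. No label states that both livers of a group are separate animals, and without that the p-values cover no more than the spread of these samples.

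Tests covered 12422 probe sets, without 66 controls (10833 with 1 gene symbol, 396 with several, 1193 with none; 10817 were matched by gene identifier). In limma 3.58.1 (R 4.3.3) 4 group means were fitted to log2(ratio + 0.1) of all 8 arrays, moderated by eBayes (4 residual and 2.37 prior degrees of freedom), with Benjamini-Hochberg adjustment over all probe sets and a threshold of 0.05. The median SE was 0.32 for 2 against 2 arrays and 0.23 for 4 against 4. The fit was tested on simulated data for the AP20187 effect in Atf4+/+. It called 0.6% of the probe sets given a log2 change of 1, 37.8% at 2, 39.6% at -2 and 70.4% at 3. Promoter windows were searched with Python 3.11.15. Named genes were all member probe sets, Atf4, the smallest p of each pathway role group over both genotypes and between treated genotypes, and the 3 genes most like the mean profile and most like Ppara. Others (Fasn, Crat 103646_at) were chosen after their values were seen. Members and lists were chosen with earlier results of these data known. Alternatives were other pseudocounts, normalizations, filters, moderation, weights, spread estimates, thresholds and arrays.

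Of the other marker lists, over both genotypes 5 of 13 macrophage, 4 of 9 lymphocyte, 2 of 5 neutrophil, 2 of 6 endothelial, 4 of 8 stellate cell, 2 of 4 cholangiocyte, 2 of 4 adipocyte, 2 of 2 erythroid, 3 of 7 skeletal muscle, 0 of 2 exocrine pancreas, 8 of 13 clock and 1 of 6 feeding-state probe sets were higher, the rest lower, and 1 (Igfbp1 103896_f_at, feeding state) passed the adjusted test.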

Additional observations from a re-analysis of the deposited data

How the results depend on the processing

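The count of member probe sets past the adjusted test was 0 in each of the 6 comparisons under every alternative run, with the smallest adjusted p of a member at 0.209 (Acadvl 161623_at in Atf4+/+ without AP20187 Atf4+/+ replicate 1). At an unadjusted p below 0.05 the count was 0 to 3: without AP20187 Atf4+/+ replicate 1 it was 3 for the AP20187 effect in Atf4+/+ (Cpt2 95646_at -0.93, Ehhadh -1.31 and Acadvl 161623_at 2.14; without replicate 2 of that group -0.18, -0.26 and -0.71), and without untreated Atf4+/+ replicate 2 it was 2 over both genotypes (Ppara -1.15 and Abcd2 -0.81; without replicate 1 of that group -0.47 and -0.27), as it was without untreated Atf4-/- replicate 1 (Ppara -1.13 and Acaa1b 99571_at -0.53; without replicate 2 of that group -0.48 and -0.26). The median over the members stayed below 0 for the AP20187 effect in Atf4+/+ (-0.31 to -0.01), in Atf4-/- (-0.55 to -0.06) and over both (-0.30 to -0.15). It changed sign in 6 of 18 alternatives for the difference of the effects (-0.49 to 0.40), 3 of 19 for the genotypes without AP20187 (-0.31 to 0.27) and 2 of 19 with it (-0.24 to 0.16).

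Over all probe sets, the calls went from 1 to 17 in Atf4+/+ with untreated Atf4-/- replicate 1 counted as Atf4+/+, 15 at an adjusted p under 0.1, 8 with only probe sets of a median of at least 0.99 and 2 with quantile normalization, and to 0 without any 1 array, without both arrays whose Atf4 level opposed their label, or with only the groups compared. Over both genotypes they went from 5 to 3 with a pseudocount of 0.01 or array weights, 8 with a pseudocount of 0.5, 10 with only probe sets of a median of at least 0.99, 12 with quantile normalization and 21 at an adjusted p under 0.1, and to between 0 and 2 without any 1 array (0 without both opposed arrays). For the difference of the effects 2 were called at an adjusted p under 0.1 or with that filter, and 1 in Atf4-/- at an adjusted p under 0.1. The median r between members was 0.38 to 0.45 with other pseudocounts and normalizations, alternatives chosen after seeing the data, as were the arrays left out for it. No paired analysis was possible because the labels give no replicate numbers shared between groups. Ratios carry no signal over background, and 2 arrays a group limit the precision.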
